A study of Homo sapiens with 61 samples.

Results

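Trimethylation of histone H3 at lysine 4 (H3K4me3) was compared between ASH1L-/- and wild-type (WT) U2OS cells 3 h after irradiation with ultraviolet (UV) light. The comparison rests on 6 libraries, 3 from each genotype, chosen by their labels from 18 H3K4me3 libraries and 61 samples in the series. The study followed H3K4me3 and the repair factor XPC by chromatin immunoprecipitation and sequencing in cells with and without ASH1L, before and after UV. The groups used here are ASH1L-/- cells 3 h after 20 J/m2 UV, WT cells 3 h after the same dose, unirradiated ASH1L-/- cells and unirradiated WT cells, each with 3 libraries. Libraries of ASH1L-/- and WT cells 1 h after the same dose, also 3 each, entered the estimate of the spread behind every limma p-value and are not described here. U2OS is a human osteosarcoma cell line. The ASH1L-/- cells came from individual colonies after CRISPR/Cas9 cuts that removed sequence in exon 2 and in exons 11 and 12 of ASH1L, so a difference from WT cells can belong to the colony or to the loss of ASH1L, and the 2 cannot be told apart. Libraries within a group carry the label biological replicate with no further detail, so p-values measure the spread among those libraries, which may be partly technical.

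H3K4me3 is written mainly by the SET1 and MLL complexes and sits on the nucleosomes that flank the start sites of active and poised genes, usually with a gap over the start site itself, where nucleosomes are sparse. ASH1L is a SET-domain methyltransferase best known for methylating H3 at lysine 36, and it acts in a complex with MRG15 (gene symbol MORF4L1). Nucleotide excision repair removes UV lesions after XPC has sensed them and the helicases of TFIIH have verified them, while stalled transcription triggers a stress program of immediate early and p53 target genes.

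Each library was deposited as a list of peaks, stretches of DNA where reads exceeded the local control. Covered length is the number of kilobases of a window that lie under peaks, and height is the highest fold enrichment over the local control of a peak with its summit in the window. A fall or loss in a window is a lower value in ASH1L-/- than in WT cells, and a rise or gain a higher one. Neither is a change over time. The lists held 123361, 94366 and 120237 peaks in ASH1L-/- libraries at 3 h, against 137372, 119986 and 141258 peaks in WT libraries at 3 h. Depth relative to the shallowest of the 6 libraries, recovered from the peak values, was 1.55, 1.21 and 1.24 in ASH1L-/- libraries against 1.66, 1.00 and 1.69 in WT libraries. Peaks covered the promoters of 7 of 11 mesenchymal and osteoblast markers in all 6 libraries (PRRX1, VIM, COL1A1, CDH2, FN1, RUNX2 and SNAI2), and those of ALPL, SP7, TWIST1 and COL1A2 in none. Promoters of the 4 blood and 2 hepatocyte markers were not covered in any of the 6 libraries. Among 4 epithelial markers EPCAM was covered in 6 libraries, KRT5 in 1, and CDH1 and GRHL2 in 0. The ASH1L promoter lies outside the deleted exons, so its H3K4me3 checks nothing about the knockout. In bulk libraries, fewer cells with the mark and less of the mark per cell cannot be told apart.

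The sequences at the centres of 6 distal regions named below are shown first, because base composition is the feature by which distal regions are compared below. Each is 200 bases of the + strand of hg38 centred on the highest summit, with CG dinucleotides in capitals. The first 4 regions were covered less in ASH1L-/- cells than in WT cells at 3 h and had a GC content of 60%, 58.5%, 63% and 62%.
in SNHG14, chr15:25181642-25181841: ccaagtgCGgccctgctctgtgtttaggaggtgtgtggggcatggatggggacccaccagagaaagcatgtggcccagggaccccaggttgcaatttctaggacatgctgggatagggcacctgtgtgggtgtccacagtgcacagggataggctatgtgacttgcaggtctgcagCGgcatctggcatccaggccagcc
chromosome 12 short arm, chr12:34389797-34389996: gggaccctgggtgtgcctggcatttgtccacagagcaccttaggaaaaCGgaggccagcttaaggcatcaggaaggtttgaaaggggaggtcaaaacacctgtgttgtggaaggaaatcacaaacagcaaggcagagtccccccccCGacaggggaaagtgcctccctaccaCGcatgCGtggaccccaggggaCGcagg
near RET, chr10:42984725-42984924: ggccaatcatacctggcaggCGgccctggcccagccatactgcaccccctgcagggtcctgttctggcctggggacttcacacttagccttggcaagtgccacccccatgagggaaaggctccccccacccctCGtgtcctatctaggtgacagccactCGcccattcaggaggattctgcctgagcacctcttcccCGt
nearest to GLRX3, chr10:130492222-130492421: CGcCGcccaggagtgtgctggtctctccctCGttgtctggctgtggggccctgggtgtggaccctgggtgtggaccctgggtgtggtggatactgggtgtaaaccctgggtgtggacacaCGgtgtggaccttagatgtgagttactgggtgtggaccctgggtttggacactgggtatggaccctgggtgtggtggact
The other 2 regions were covered more in ASH1L-/- cells than in WT cells and had a GC content of 32% and 37%. Over the 8 gains for which the same 200 bases were read it lay between 32% and 70.5%. The gains not shown had 63.5%, 35.5%, 48%, 70.5%, 45.5% and 57%, so the 2 shown are among the lowest.
in LINC00958, chr11:12988511-12988710: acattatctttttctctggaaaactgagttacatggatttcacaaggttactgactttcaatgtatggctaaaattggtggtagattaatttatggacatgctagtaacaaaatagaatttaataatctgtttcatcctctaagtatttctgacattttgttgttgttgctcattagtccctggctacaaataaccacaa
near SCIN, chr7:12554995-12555194: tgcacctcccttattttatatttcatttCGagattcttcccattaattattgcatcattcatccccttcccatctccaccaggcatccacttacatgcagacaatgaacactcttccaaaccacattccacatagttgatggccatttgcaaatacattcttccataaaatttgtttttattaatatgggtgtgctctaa
The sequence nearest to GLRX3 holds tgtggaccctggg 3 times, and the sequence in LINC00958 holds no CG dinucleotide.

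Promoter peaks were lower and more often split in ASH1L-/- cells at 3 h. The median height of a promoter peak was 5.81, 6.68 and 6.34 in ASH1L-/- libraries, against 10.6, 10.6 and 9.91 in WT libraries at 3 h. No ASH1L-/- library reached the lowest WT library. Without UV the medians were 6.99, 6.62 and 6.84 in ASH1L-/- libraries and 9.67, 7.38 and 10.3 in WT libraries, nearer to each other but again without overlap. Across windows of 2 kb on each side of a start site, 7749 of 14605 heights fell and 133 rose in ASH1L-/- cells at 3 h (limma, Benjamini-Hochberg adjusted p under 0.05; 53.1% and 0.911% of windows, 54.0% in all). The median log2 difference was −0.66 at 3 h and −0.34 without UV, where 1608 heights fell and 137 rose. Once each library was centred on its own median, 1754 heights fell and 2189 rose, so the call for a single promoter depends on whether the general shift is kept. A promoter with 2 or more summits was found in 31.2%, 33.2% and 39.9% of marked promoters in ASH1L-/- libraries, against 15.6%, 22.6% and 18.1% in WT libraries. Without UV these shares were 36.5%, 40.7% and 37.8% in ASH1L-/- libraries and 23.8%, 39.2% and 26.8% in WT libraries, which overlapped. High peaks, those enriched at least 5-fold, numbered 16490, 18400 and 19473 in ASH1L-/- libraries, against 26486, 25375 and 26099 in WT libraries. That is a ratio of 0.696 with no overlap between the genotypes (exact permutation test, two-sided, p = 0.1, the smallest p that 3 against 3 libraries allow). Without UV those counts were 16448, 14860 and 16905 in ASH1L-/- libraries and 18618, 15673 and 22233 in WT libraries, which overlapped (exact p = 0.3).

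**Figure D1:**
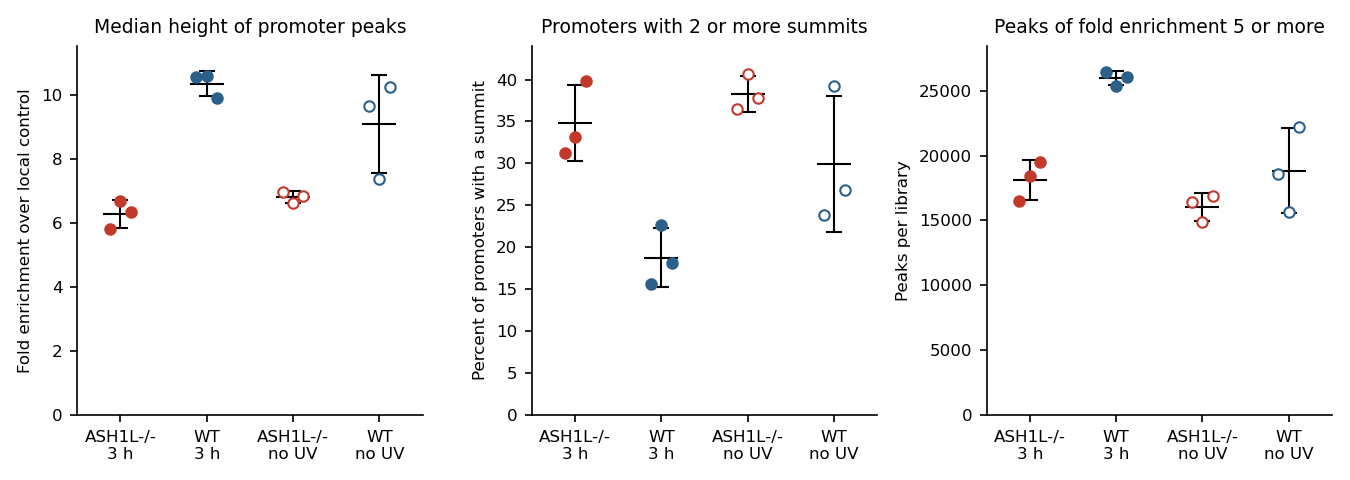
Median height of promoter peaks (fold enrichment), promoters with 2 or more summits (percent of promoters with a summit) and number of peaks enriched at least 5-fold, for ASH1L-/- (red) and WT (blue) cells 3 h after UV (filled) and without UV (open). Each point is a library, and the bar and whiskers are the mean and SD of 3; at 3 h the genotypes do not overlap in any panel, and without UV they overlap in the panels of split promoters and of high peaks.

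The gap in coverage over the start site was deeper in ASH1L-/- cells. At 100 bp upstream of the start site 47.1%, 46.5% and 42.1% of promoters were under a peak in ASH1L-/- libraries, against 60.9%, 56.0% and 59.6% in WT libraries. At 500 bp into the gene the means were close, 63.2% in ASH1L-/- libraries and 64.4% in WT libraries, although the libraries did not overlap. Further in, the order turned: at 2 kb past the start site 33.1%, 31.8% and 33.1% of promoters were covered in ASH1L-/- libraries, against 28.8%, 26.5% and 30.6% in WT libraries. Further along gene bodies the means crossed again, in the opposite direction. Mean coverage in ASH1L-/- libraries was 1.15 times that in WT libraries at 2.5 kb and 0.99 times at 5 kb. It was 0.83 times at 10 kb and 0.71 times at 100 kb, with overlapping libraries from 5 kb on. Without UV, 19.8%, 17.8% and 21.3% were covered at 2.5 kb in ASH1L-/- libraries and 14.7%, 15.0% and 19.7% in WT libraries. At 100 kb these shares were 1.97%, 1.39% and 2.43% in ASH1L-/- libraries and 1.56%, 1.45% and 2.27% in WT libraries. Counting only peaks of fold enrichment 5 or more, 41.9% of start sites were covered on average in ASH1L-/- libraries and 59.7% in WT libraries, and at 2 kb into the gene the libraries overlapped. With all peaks counted, marked promoters were covered over a similar length. The median covered length of a marked promoter was 2.64, 2.63 and 2.62 kb in ASH1L-/- libraries and 2.59, 2.51 and 2.63 kb in WT libraries. Fewer windows were covered at all: 14017, 13928 and 14027 in ASH1L-/- libraries, against 14444, 14234 and 14468 in WT libraries, with no overlap. With peaks of fold enrichment 5 or more the median difference in length was −0.24 kb.

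**Figure D2:**
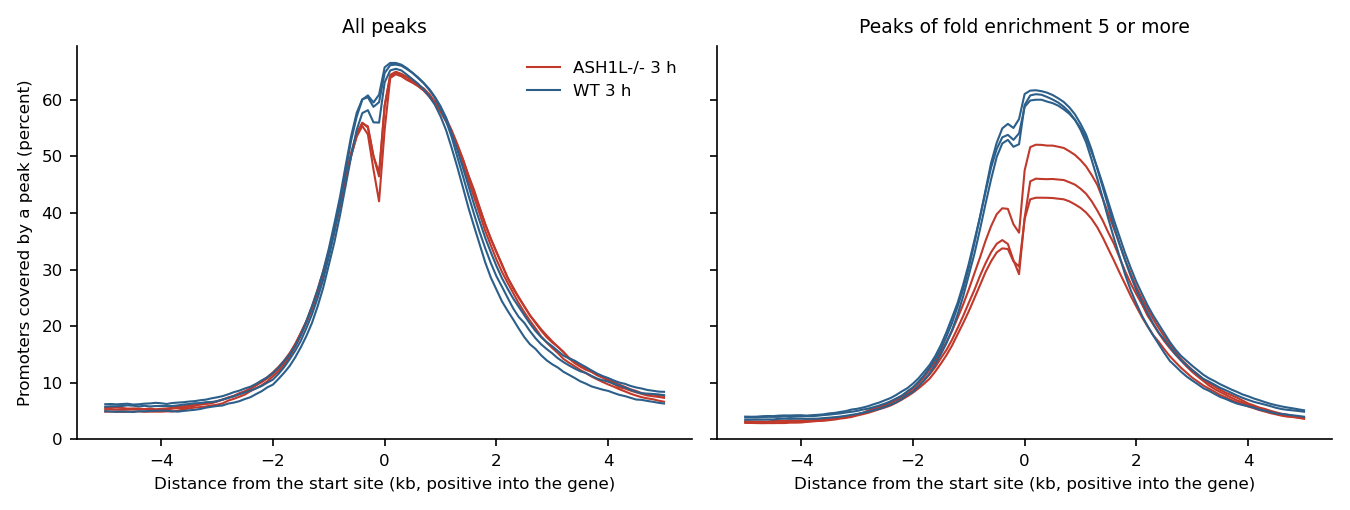
Percent of promoters under a peak against distance from the start site (kb, positive into the gene), 1 line per library 3 h after UV, ASH1L-/- in red and WT in blue, for all peaks (left) and for peaks of fold enrichment 5 or more (right). With all peaks the ASH1L-/- lines dip lower just upstream of the start site and run above the WT lines near 2 kb; with high peaks they run below the WT lines at the start site.

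The length of DNA under peaks at promoters moved in both directions. In ASH1L-/- cells at 3 h 1085 of 14745 promoter windows were covered less and 1032 were covered more (7.36% and 7.0%, 14.4% in all), with a median difference of 0.00 kb, and 4308 windows had an unadjusted p under 0.05. Of the 1082 windows covered less that also had a height, 669 (61.8%) had a lower peak, and of 1030 covered more, 560 (54.4%) had a lower peak too, beside 52.2% of windows with no change in length. Scaling each library to an equal total length moved the median difference to 0.51 kb and left 274 falls and 621 rises. Counting only peaks of fold enrichment 5 or more gave 2155 falls and 465 rises, and windows of 1 kb on each side gave 1517 falls and 252 rises. Leaving out ASH1L-/- replicate 1, 2 or 3 gave 1152, 1260 and 1303 calls, and leaving out WT replicate 1 gave 1082, so a share of single calls rests on 1 library.

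Among promoters that passed and did not overlap, the largest loss was at MUC4, which encodes a membrane mucin of epithelial surfaces (chromosome 3, 195809929 to 195813928 in hg38). It had no peak in any of the 3 ASH1L-/- libraries and was covered over 3.54, 3.77 and 2.42 kb in WT libraries, a difference of −3.24 ± 0.29 kb (SE, n = 3 each; adjusted p = 6.07e-06). Without UV it was also bare in ASH1L-/- libraries, with a difference of −2.05 kb. HOXC4, a homeobox gene of trunk patterning (chromosome 12, 54051835 to 54055834), was covered over 0.84, 0.456 and 0.684 kb in ASH1L-/- libraries, against 3.42, 3.00 and 3.07 kb in WT libraries (difference −2.50 kb, adjusted p = 1.16e-06). C10orf71, a gene of striated muscle, had no peak in ASH1L-/- libraries at 3 h and 3.25, 1.83 and 3.22 kb in WT libraries. HRCT1, whose product carries a histidine-rich tail, had 0, 0 and 0.731 kb in ASH1L-/- libraries and 2.84, 2.64 and 3.07 kb in WT libraries. At each of these 4 promoters the genotypes were fully apart. ITGBL1, a secreted protein related to integrin beta chains, was bare in ASH1L-/- libraries and covered over 2.67, 2.53 and 3.01 kb in WT libraries. XPC libraries of unirradiated cells served to look for stretches of DNA with unequal representation. Beside each gene named below, the ASH1L-/- minus WT difference in the share of XPC peak coverage in its 5 Mb bin is given where it was beyond 0.5 on the log2 scale. In the bin of ITGBL1 the share of XPC coverage was lower in ASH1L-/- cells (−5.89 on the log2 scale), so a stretch missing from the ASH1L-/- cells and a loss of the mark cannot be told apart there.

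The other 5 of the 10 largest losses were keratin-associated protein genes of hair, KRTAP10-5, KRTAP12-3, KRTAP12-2, KRTAP10-9 and KRTAP12-4, which sit in 1 cluster on chromosome 21 between 44578604 and 44668926. KRTAP10-5 was covered over 1.06, 0.412 and 0.78 kb in ASH1L-/- libraries, against 4, 3.76 and 4 kb in WT libraries (difference −3.17 kb, adjusted p = 3.46e-06). Over all keratin-associated protein genes, 12 of 21 tested promoters fell and none rose, with a median of −0.72 kb. The share of XPC coverage in the 5 Mb around the chromosome 21 cluster was lower in ASH1L-/- cells (−4.49 on the log2 scale), and outside bins of unequal XPC coverage 1 of 8 such promoters fell. These neighbours share DNA in their windows and are not separate observations.

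Promoters that gained coverage included a pair of histone genes. H2BC8 and H2AC8 encode an H2B and an H2A histone and are transcribed away from each other from 1 shared promoter on chromosome 6. H2BC8 was covered over 3.07, 3.63 and 3.52 kb in ASH1L-/- libraries and had no peak in the 3 WT libraries, a difference of 3.41 ± 0.23 kb (adjusted p = 3.54e-07). The difference without UV was 2.24 kb. H2AC8 had 2.89, 3.56 and 3.43 kb in ASH1L-/- libraries and none in WT libraries. The promoter is shown from RefSeq (GRCh38.p14, + strand) because it carried the largest gain, with a TATA box (TATAAA, here on the opposite strand) and CCAAT boxes on either strand in capitals.
H2AC8, chr6:26216671-26216970: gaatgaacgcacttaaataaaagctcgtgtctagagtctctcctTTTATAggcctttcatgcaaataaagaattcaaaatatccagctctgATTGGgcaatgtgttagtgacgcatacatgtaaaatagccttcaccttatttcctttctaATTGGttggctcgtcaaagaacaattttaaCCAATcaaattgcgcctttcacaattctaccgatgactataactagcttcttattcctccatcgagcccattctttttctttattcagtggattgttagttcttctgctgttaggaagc
TATAAA on either strand was present in 11.95% of 27305 RefSeq promoters of this length, and CCAAT in 35.7%, and no inference about a bound factor follows from a match. GDF15, a stress-induced cytokine and p53 target, was covered over 2.12, 2.31 and 1.86 kb in ASH1L-/- libraries and not at all in WT libraries (difference 2.10 kb, adjusted p = 0.000537). IFI44, an interferon-stimulated gene, had 2.11, 2.2 and 2.04 kb in ASH1L-/- libraries, against 0.016, 0.2 and 0.032 kb in WT libraries. KCNH1, a voltage-gated potassium channel gene, had 1.91, 1.91 and 1.91 kb in ASH1L-/- libraries and none in WT libraries. Further gains were at C1QTNF12 and LRRC17, both bare in WT libraries, at SOSTDC1, which encodes an antagonist of BMP and Wnt signals, and at MYO10, the myosin of filopodia. SOSTDC1 and MYO10 lie in 5 Mb bins where the share of XPC coverage was lower in ASH1L-/- cells (−1.79 and −0.67 on the log2 scale). For none of these 9 gains did the difference at 3 h differ from that without UV by the test. With peaks enriched at least 5-fold, HRCT1, ITGBL1, KRTAP10-9, C1QTNF12 and MYO10 did not pass in promoter length.

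**Figure D3:**
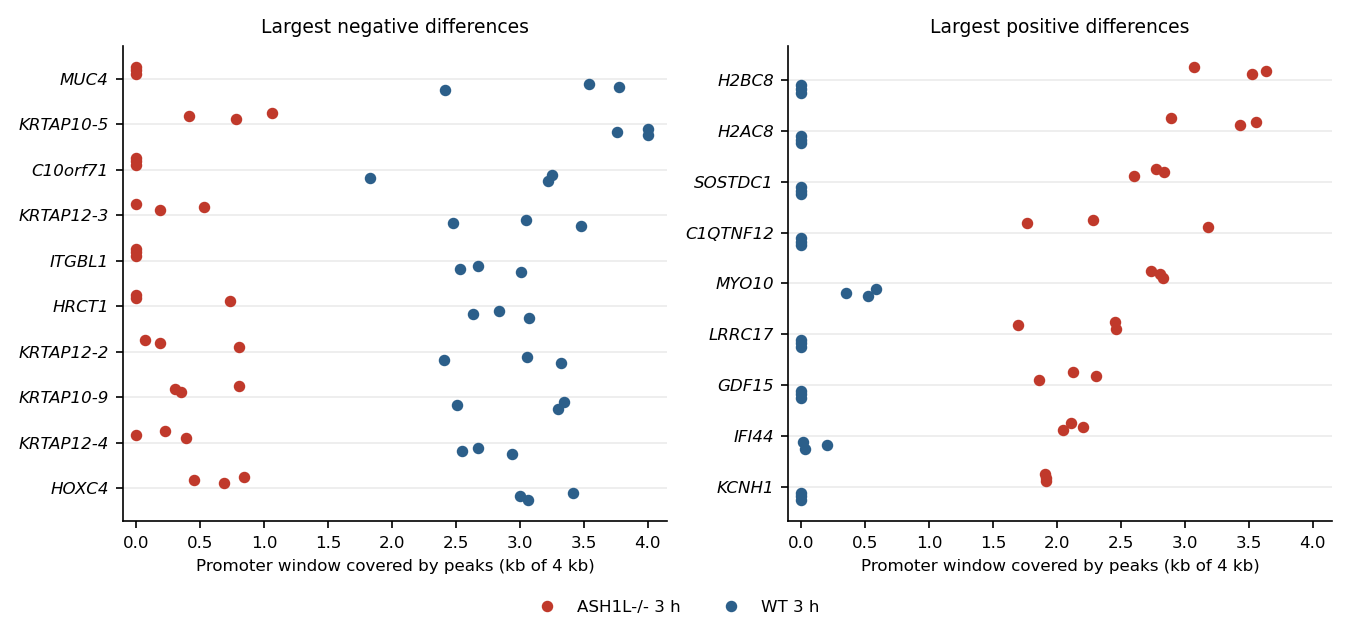
Kilobases of the 4 kb promoter window under peaks in each library 3 h after UV, ASH1L-/- (red, upper of each pair) and WT (blue), for promoters with the largest negative (10, left) and positive (9, right) differences among those that passed and did not overlap. Each point is a library; ASH1L-/- points lie at or below 1.06 kb on the left, and WT points at or below 0.581 kb on the right.

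Height separated promoters that length did not. SSRP1 and SUPT16H encode the subunits of FACT, the histone chaperone that moves nucleosomes ahead of polymerases. The SSRP1 promoter peak had a height of 5.32, 11.3 and 10.8 in ASH1L-/- libraries, against 19.5, 17.4 and 16.3 in WT libraries (log2 difference −1.03, adjusted p = 0.00118), while its covered length was 2.76, 2.71 and 2.80 kb in ASH1L-/- libraries and 2.79, 2.82 and 2.78 kb in WT libraries (adjusted p = 0.668). Without UV the height of SSRP1 was 6.89, 6.41 and 6.51 in ASH1L-/- libraries and 12.9, 9.68 and 14.5 in WT libraries (−0.88, adjusted p = 0.0216). The difference between the 2 differences did not pass (−0.15, adjusted p = 0.84). SUPT16H had a height of 10.5, 11.5 and 15.1 in ASH1L-/- libraries, against 20.3, 20.2 and 18.4 in WT libraries (−0.68, adjusted p = 0.00439), and 0.05 after centring each library, where SSRP1 did not pass either. The −0.68 of SUPT16H is close to the median of −0.66 over all windows. Without UV its difference was −0.32 (adjusted p = 0.245), and the difference between the 2 differences did not pass (−0.36, adjusted p = 0.441). ASH1L itself was covered over 2.86, 2.81 and 2.86 kb in ASH1L-/- libraries and 2.81, 2.77 and 2.78 kb in WT libraries (adjusted p = 0.548). MORF4L1 and DDB2, the lesion sensor that hands UV damage to XPC, did not pass in length (adjusted p = 0.519 and 0.363) or in height (0.0816 and 0.332), and the bin of MORF4L1 had a higher share of XPC coverage in ASH1L-/- cells by 0.68. Without ASH1L-/- replicate 2 the fall in height at MORF4L1 passed (−0.77, adjusted p = 0.0241), and after centring the height of DDB2 passed as higher (0.48). Of the 133 heights that rose, 61 had no summit in the window in any WT library, and 14 of those windows were nonetheless covered in 3 of 3 WT libraries. AGRP shows this: its height was 8.44, 9.61 and 8.89 in ASH1L-/- libraries and no summit was called in WT libraries, while 1.26, 1.29 and 1.23 kb were covered in ASH1L-/- libraries and 1.17, 1.08 and 1.17 kb in WT libraries.

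Among genes of nucleotide excision repair, 4 of 35 promoters gained length and none lost it (11.4% and 0%, beside 7.0% and 7.36% of all windows), with a median difference of 0.07 kb. XPC, the damage sensor, was covered over 3.84, 3.74 and 3.77 kb in ASH1L-/- libraries, against 3.02, 3.28 and 3.41 kb in WT libraries (difference 0.55 kb, adjusted p = 0.0183). That call was lost without ASH1L-/- replicate 1 or WT replicate 1 (adjusted p = 0.062 and 0.0842) and under scaling to an equal total (0.0533), and the difference turned to −0.15 kb in windows of 1 kb on each side (adjusted p = 0.00343) and with peaks of fold enrichment 5 or more. GTF2H3, a subunit of TFIIH, had 3.06, 3.02 and 2.90 kb in ASH1L-/- libraries, against 2.50, 2.16 and 2.78 kb in WT libraries (0.51 kb, adjusted p = 0.00799), and the difference was −0.01 kb in the windows of 1 kb. Its call was also lost when only the groups compared were fitted (adjusted p = 0.0757). LIG1, the ligase that can seal the repaired strand, had 2.85, 2.96 and 2.94 kb in ASH1L-/- libraries, against 2.42, 2.42 and 2.62 kb in WT libraries (adjusted p = 0.00557), in a bin where XPC coverage was higher in ASH1L-/- cells by 1.23 on the log2 scale. Its call was lost under scaling to an equal total (adjusted p = 0.0726), and in windows of 1 kb its difference was 0 kb. RPA1, which binds the single strand opened around a lesion, passed with a difference of 0.39 kb (adjusted p = 0.0371). Its call was lost without ASH1L-/- replicate 1, 2 or 3 (adjusted p = 0.141, 0.0682 and 0.0602) and without WT replicate 1 or 2 (0.111 and 0.104). It was also lost at the depth of the shallowest library (0.23 kb, adjusted p = 0.238), at −log10 q of at least 1.3 (0.128), under scaling (0.077) and with peaks enriched at least 5-fold (0.175), and in windows of 1 kb the difference was 0 kb. Without ASH1L-/- replicate 1 or WT replicate 1 the list had 2 gains. In height, 19 of 35 repair promoters fell and none rose (54.3%, close to the 53.1% of all windows), with a median log2 difference of −0.71 beside −0.66 over all windows. GTF2H1, another TFIIH subunit, had a height of 9.60, 10.1 and 9.80 in ASH1L-/- libraries, against 28.6, 25.2 and 24.2 in WT libraries, while without UV it had 18.8, 16.2 and 16.2 in ASH1L-/- libraries and 15.0, 11.8 and 15.6 in WT libraries. ERCC4, which encodes the nuclease XPF, had 6.35, 5.58 and 6.85 in ASH1L-/- libraries, against 18.6, 21.4 and 17.1 in WT libraries, in a bin where XPC coverage was higher in ASH1L-/- cells by 0.63. In windows of 1 kb the fall at GTF2H1 did not pass (adjusted p = 0.149).

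The genes of the ASH1L complex, FACT and H3K4 methylation had no call in promoter length among 28 tested (limma, 2 with an unadjusted p under 0.05), and 15 of the 28 fell in height, a share close to the 53.1% of all windows. The largest of these falls were at demethylases of H3K4. KDM5C had a height of 5.42, 6.53 and 6.27 in ASH1L-/- libraries, against 19.5, 20.8 and 20.9 in WT libraries (log2 difference −1.75, adjusted p = 1.89e-06). KDM5A had 7.02, 7.49 and 6.97 in ASH1L-/- libraries, against 23.8, 23.3 and 22.5 in WT libraries, in a bin where XPC coverage was lower in ASH1L-/- cells (−3.74 on the log2 scale).

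Immediate early and stress genes, which cells switch on within minutes of a stimulus, had 13 falls and no rise in length among 30 promoters (43.3% lower, beside 7.36% of all windows), with a median of −0.24 kb beside 0.00 kb. The other 17 did not pass. With a single library left out, 6 fell without ASH1L-/- replicate 1, WT replicate 1 or WT replicate 3, 8 without ASH1L-/- replicate 3, 9 without ASH1L-/- replicate 2 and 12 without WT replicate 2. After scaling to an equal total 1 fell, and the list's median of 0.41 kb stayed below the 0.51 kb of all windows. NR4A1, a nuclear receptor induced by stress, was covered over 2.65, 2.2 and 3.06 kb in ASH1L-/- libraries at 3 h, against 3.44, 3.35 and 3.44 kb in WT libraries (difference −0.78 kb, adjusted p = 0.00582). Without UV it was covered over 1.74, 1.72 and 1.87 kb in ASH1L-/- cells and 1.71, 1.5 and 1.54 kb in WT cells, with ASH1L-/- libraries the higher ones (difference 0.19 kb, adjusted p = 0.564). The difference between the 2 differences passed (adjusted p = 0.0418). DUSP2, a phosphatase that switches off MAP kinases, had 2.07, 2.34 and 2.0 kb in ASH1L-/- libraries, against 3.08, 2.85 and 3.10 kb in WT libraries (−0.87 kb, adjusted p = 0.000971). Both calls were lost under scaling to an equal total (adjusted p = 0.689 for NR4A1 and 0.45 for DUSP2), that of NR4A1 also when only the groups compared were fitted (0.0542) and that of DUSP2 with peaks enriched at least 5-fold (0.159). In height, 21 of 30 members fell and none rose (70%, beside 53.1% of all windows). FOSB, a partner of JUN in the AP-1 factor, had a height of 6.17, 7.56 and 7.24 in ASH1L-/- libraries, against 19.5, 20.9 and 20.3 in WT libraries (log2 difference −1.54, adjusted p = 5.04e-06), in a bin where XPC coverage was higher in ASH1L-/- cells by 1.23. Without UV the heights at FOSB were 7.65, 5.77 and 8.38 in ASH1L-/- libraries and 8.49, 6.32 and 7.68 in WT libraries, which overlapped, and in windows of 1 kb the fall at 3 h did not pass (adjusted p = 0.179). JUN had 6.95, 6.63 and 7.44 in ASH1L-/- libraries, against 17.2, 19.0 and 15.7 in WT libraries at 3 h. TATAAA lay in the RefSeq promoter of 7 of 21 members found there, and in 3 of the 9 found that lost length, GADD45B, JUNB and DUSP1. Both shares were 33.3%, beside 6.385% of 11637 promoters tested, and whether the motif goes with a fall was not tested. XPC coverage was lower in ASH1L-/- cells in the bin of GADD45B (−1.04 on the log2 scale) and higher in that of DUSP1 (0.93).

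Targets of p53 went both ways in length, with 6 falls and 2 rises among 28 promoters (21.4% and 7.14%, beside 7.36% and 7.0% of all windows). Of those falls, 1 was left without ASH1L-/- replicate 1 or WT replicate 1, 2 without ASH1L-/- replicate 3 or WT replicate 3, 3 without ASH1L-/- replicate 2 and 4 without WT replicate 2. PLK3, a stress kinase, had 1.98, 2.0 and 1.99 kb in ASH1L-/- libraries, against 2.47, 2.62 and 2.83 kb in WT libraries (adjusted p = 0.000987, lost under scaling to an equal total), while GDF15 gained a peak as given above. CDKN1A, the cell cycle inhibitor p21, had a height of 5.80, 7.05 and 5.66 in ASH1L-/- libraries, against 15.5, 15.7 and 13.4 in WT libraries. Epithelial and keratinocyte genes had 5 falls and no rise among 12 promoters (41.7% lower), the same count without any single library. KRT8, a simple-epithelium keratin, had 0.754, 0.764 and 0.632 kb in ASH1L-/- libraries, against 1.90, 1.74 and 1.93 kb in WT libraries (difference −1.14 kb, adjusted p = 3.75e-05). CLDN4, a tight junction claudin, had 0, 0 and 0.961 kb in ASH1L-/- libraries, against 2.08, 2.17 and 2.14 kb in WT libraries. LAMB3, a laminin chain of basement membranes, had 1.43, 1.72 and 2.40 kb in ASH1L-/- libraries at 3 h, against 3.3, 3.18 and 3.52 kb in WT libraries, and the difference passed as larger than that without UV (adjusted p = 0.00924). The call of LAMB3 at 3 h was lost under scaling to an equal total (adjusted p = 0.0903).

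HOX genes had 4 falls and 2 rises among 29 promoters (13.8% and 6.90%, beside 7.36% and 7.0% of all windows). HOXC5, a neighbour of HOXC4, was covered over 1.43, 1.48 and 1.38 kb in ASH1L-/- libraries and had no peak in WT libraries (difference 1.43 kb, adjusted p = 2.58e-09), and without UV it had 1.40, 1.42 and 1.34 kb in ASH1L-/- libraries and none in WT libraries. HOXD11, a gene of limb patterning, had 3.89, 3.85 and 3.83 kb in ASH1L-/- libraries, against 2.23, 2.17 and 2.79 kb in WT libraries. With peaks enriched at least 5-fold neither HOXC5 nor HOXD11 passed. Developmental transcription factor genes had 8 falls and 4 rises among 55 promoters (14.5% and 7.27%). NKX2-6, a homeobox gene of heart and pharynx, had no peak in ASH1L-/- libraries and 2.50, 2.23 and 2.52 kb in WT libraries at 3 h, and in WT cells without UV 0, 0 and 0.457 kb. LHX9, a factor of gonad development, had 3.82, 3.87 and 4 kb in ASH1L-/- libraries, against 2.48, 2.38 and 2.65 kb in WT libraries. Mesenchymal and osteoblast genes had 1 fall and 3 rises among 17 promoters (5.88% and 17.6%), among them COL3A1, a fibrillar collagen, with 2.18, 2.09 and 2.34 kb in ASH1L-/- libraries, against 0.254, 0.325 and 0.748 kb in WT libraries. Clustered protocadherin genes, adhesion proteins of neurons, had 11 falls and no rise among 53 promoters (20.8% lower), and PCDHGA7 had 1.66, 1.01 and 1.07 kb in ASH1L-/- libraries, against 2.39, 2.40 and 3.19 kb in WT libraries. Without ASH1L-/- replicate 2 or WT replicate 1 that list had 7 falls, under scaling to an equal total it split into 9 falls and 7 rises, and its bin had a higher share of XPC coverage in ASH1L-/- cells by 0.79 on the log2 scale.

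Cytosolic ribosomal protein genes had 3 falls and 2 rises in length among 78 promoters, shares of 3.85% and 2.56% beside 7.36% and 7.0% of all windows, and 31 of 78 fell in height (39.7% beside 53.1%), with a median log2 difference of −0.48 beside −0.66. Replication and cell cycle genes had 2 rises and no fall in length among 42 promoters (4.76% higher) and 27 falls in height (64.3%). BUB1, a spindle checkpoint kinase, had a height of 5.31, 6.12 and 9.69 in ASH1L-/- libraries, against 27.5, 24.0 and 23.1 in WT libraries. Interferon-stimulated genes had 1 fall and 2 rises among 18 promoters (5.56% and 11.1%), NF-kappaB and inflammatory genes 3 falls and 2 rises among 18 (16.7% and 11.1%), and neuronal genes 3 falls and 2 rises among 20 (15% and 10%). Blood cell genes had no call among 4 (limma, 1 with an unadjusted p under 0.05), and the 2 falls among 4 hepatocyte and gut genes were both lost without any single library other than ASH1L-/- replicate 3, which left 1.

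**Figure D4:**
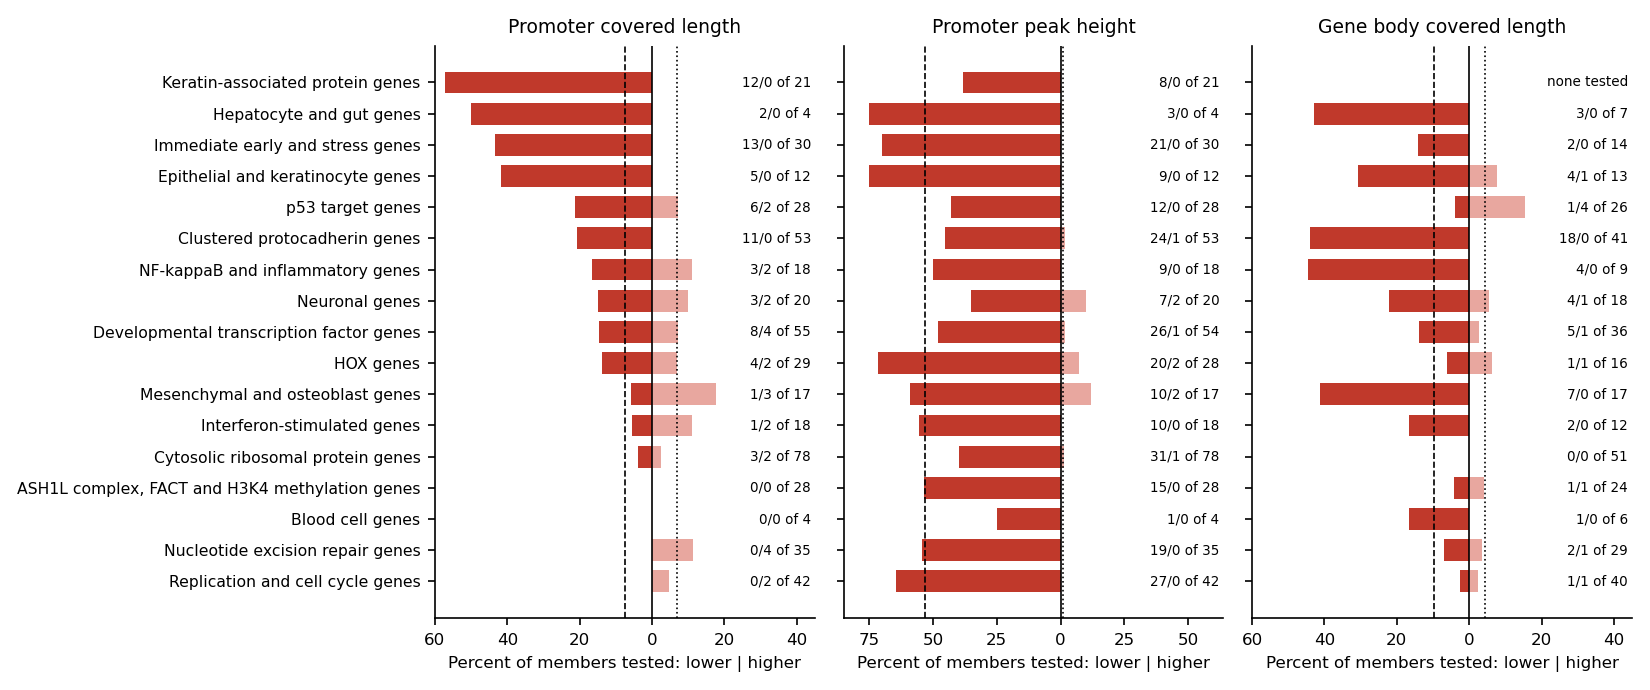
Percent of the tested members of each gene list that were lower (dark red, to the left) or higher (light red, to the right) in ASH1L-/- than in WT cells 3 h after UV, for promoter covered length, promoter peak height and gene body covered length. The dashed and dotted lines mark the percent lower and higher over all windows, and the text gives members lower/higher of members tested, such as 13/0 of 30 for immediate early and stress genes in promoter length.

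Gene bodies were more often covered less than covered more in ASH1L-/- cells compared with WT cells at 3 h. A body ran to the end of the gene from 2 kb downstream of its start, without the promoter windows of other genes. By that measure 1197 of 12402 bodies were covered less in ASH1L-/- cells at 3 h and 529 were covered more (limma on log2 of kb + 0.1; 9.65% and 4.27%, 13.9% in all). The median log2 difference was −0.04. Scaling to an equal total gave 1088 falls and 1601 rises around a median of 0.22, so the excess of falls is an excess in unscaled length, and leaving out WT replicate 1 left 1150 calls. Total covered length in gene bodies was 38.1, 27.8 and 34.1 Mb in ASH1L-/- libraries, against 44.7, 32.5 and 48.4 Mb in WT libraries, and the libraries overlapped (exact permutation p = 0.3). Without UV it was 26.3, 22.4 and 31.3 Mb in ASH1L-/- libraries and 20.7, 23.6 and 32.9 Mb in WT libraries (exact p = 0.8). The mean was thus 33.4 Mb at 3 h and 26.7 Mb without UV in ASH1L-/- libraries, and 41.9 and 25.7 Mb in WT libraries. Bodies followed their own promoters only in part. Of 768 genes whose promoter was covered less, 186 (24.2%) also lost body coverage, beside 8.08% of genes whose promoter was not called, and of 713 whose promoter was covered more, 91 (12.8%) gained body coverage, beside 4.37%. Each body began where its promoter window ended, so a peak across that edge counted in both. Promoter and body calls of a gene are therefore not separate observations.

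At the largest losses in gene bodies, ASH1L-/- libraries had almost no coverage at 3 h. ADCYAP1R1, the receptor of the neuropeptide PACAP, had 0, 0.346 and 0 kb under peaks in ASH1L-/- libraries, against 13.6, 11.3 and 18.2 kb in WT libraries (log2 difference −6.43 ± 0.77, SE; adjusted p = 0.000118), in a bin where XPC coverage was lower in ASH1L-/- cells (−1.17 on the log2 scale). TMEM132E, a membrane protein of hair cells, had 0.43, 0.304 and 0.194 kb in ASH1L-/- libraries, against 31.5, 16.8 and 42.0 kb in WT libraries, and was also lower without UV (−4.84). SYT6, a synaptotagmin of vesicle fusion, had no peak in ASH1L-/- libraries at 3 h and 5.21, 3.43 and 3.69 kb in WT libraries. Without UV the order was the other way, with 2.25, 4.85 and 5.19 kb in ASH1L-/- libraries and 0.39, 0.216 and 0 kb in WT libraries. DRD2, the dopamine D2 receptor, also had opposite orders with and without UV, with none in ASH1L-/- libraries and 7.0, 3.42 and 2.32 kb in WT libraries at 3 h, and 2.43, 1.97 and 2.67 kb in ASH1L-/- libraries and 0.422, 0.409 and 0 kb in WT libraries without UV. RAMP3, which modifies calcitonin-type receptors, had 0.311, 0 and 0 kb in ASH1L-/- libraries and 9.15, 6.74 and 6.95 kb in WT libraries. ZIC4, TSPAN15, ESPNL, CROCC2 and BMF completed the 10, each with at most 0.28 kb in any ASH1L-/- library and at least 3.1 kb in every WT library. The bin of BMF had a higher share of XPC coverage in ASH1L-/- cells (0.57), and with peaks enriched at least 5-fold BMF did not pass (adjusted p = 0.0825).

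The largest gains in gene bodies were smaller than the largest losses, and in 7 of the 10 no WT library had a peak. DNAJB11, a chaperone of the endoplasmic reticulum, had 5.16, 5.38 and 2.74 kb in ASH1L-/- libraries, against 0, 0.403 and 0 kb in WT libraries (log2 difference 4.66, adjusted p = 0.00758). XPOT, the exporter of transfer RNA, had 3.88, 3.43 and 0.65 kb in ASH1L-/- libraries and 0.109, 0 and 0 kb in WT libraries. WARS1 and LARS1, which charge tryptophan and leucine onto transfer RNA, had 3.82, 2.35 and 0.166 kb and 2.05, 2.27 and 0.521 kb in ASH1L-/- libraries, and none in WT libraries. LARS1 lost its call without ASH1L-/- replicate 1 or 2 (adjusted p = 0.058 and 0.0635), and its bin had a higher share of XPC coverage in ASH1L-/- cells (0.72). WARS1 lost its call when only the groups compared were fitted (adjusted p = 0.0702). PPARGC1A, a coactivator of mitochondrial genes, had 4.26, 3.60 and 0.722 kb in ASH1L-/- libraries and none in WT libraries, and in DNAJB11, XPOT, PPARGC1A, LARS1 and WARS1 ASH1L-/- replicate 3 was the lowest of its group. ZDHHC5, a palmitoyltransferase, had 1.21, 1.44 and 1.45 kb in ASH1L-/- libraries and none in WT libraries. CA8, VPS41, ZNF888 and C1QTNF12 completed the 10, and ZNF888 lay in a bin of higher XPC coverage in ASH1L-/- cells (1.41). With peaks enriched at least 5-fold, CA8, ZNF888 and C1QTNF12 did not pass in gene body length.

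By list, the counts stand beside 9.65% lower and 4.27% higher over all bodies. Of 41 tested clustered protocadherin bodies 18 fell (43.9%) and none rose, and these bodies are nested over the same exons and share DNA. Mesenchymal and osteoblast genes had 7 falls and no rise among 17 bodies (41.2% lower), against 1 fall and 3 rises at their promoters, with between 5 and 7 falls when a single library was left out. Outside bins of unequal XPC coverage 4 of 13 fell. PDGFRB, a growth factor receptor of mesenchyme, had 0, 0 and 0.082 kb in ASH1L-/- libraries and 0.987, 1.59 and 4.23 kb in WT libraries, in a bin of higher XPC coverage in ASH1L-/- cells (0.69). TWIST2, a mesenchymal repressor, had none in ASH1L-/- libraries and 1.27, 1.02 and 1.75 kb in WT libraries. Targets of p53 had 1 fall and 4 rises among 26 bodies (3.85% and 15.4%), with 1 rise without ASH1L-/- replicate 1, ASH1L-/- replicate 2, WT replicate 1 or WT replicate 2, and 2 without ASH1L-/- replicate 3. TIGAR, a p53 target that lowers glycolytic flux, had 5.82, 3.82 and 4.01 kb in ASH1L-/- libraries, against 1.31, 0.996 and 1.19 kb in WT libraries, in a bin where XPC coverage was lower in ASH1L-/- cells (−3.74 on the log2 scale). NF-kappaB and inflammatory genes had 4 falls and no rise among 9 bodies (44.4% lower), with NFKB2, a subunit of the factor, at 1.13, 0.886 and 1.05 kb in ASH1L-/- libraries, against 3.89, 4.10 and 4.57 kb in WT libraries. With GC content removed 1 of these 9 bodies fell, and NFKB2 did not pass (adjusted p = 0.124). Developmental transcription factor genes had 5 falls and 1 rise among 36 (13.9% and 2.78%), with PAX6, the eye and brain factor, bare in ASH1L-/- libraries and at 2.60, 1.41 and 2.34 kb in WT libraries. Neuronal genes had 4 falls and 1 rise among 18 (22.2% and 5.56%). RBFOX3, a splicing factor of neurons, had 9.83, 8.35 and 8.83 kb in ASH1L-/- libraries at 3 h, against 46.3, 32.9 and 61.7 kb in WT libraries, and without UV 14.4, 15.6 and 22.6 kb in ASH1L-/- libraries and 10.9, 6.15 and 19.1 kb in WT libraries. With peaks enriched at least 5-fold, PDGFRB, TWIST2, TIGAR and RBFOX3 did not pass.

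Distal DNA, outside promoter windows and protein-coding genes, had more falls than rises in covered length. In ASH1L-/- cells at 3 h 7946 of 70414 regions were covered less and 1311 were covered more (11.3% and 1.86%, 13.1% in all). Fitting only the groups compared gave 4002 falls and 383 rises, and peaks of fold enrichment 5 or more 2008 and 311. Regions that fell had a median of 0 kb under peaks in ASH1L-/- cells and 0.838 kb in WT cells, and they summed to 1.80 Mb in ASH1L-/- cells and 10.1 Mb in WT cells. They were picked by this difference, so its direction was set by the choice. Calls also went with the WT level: a region bare in WT cells at 3 h could not fall, and 33.2% of regions above 2 kb in WT cells fell. Of the 1311 rises, 851 were bare in WT cells. Total distal length was 38.3, 24.1 and 31.8 Mb in ASH1L-/- libraries, against 50.6, 34.7 and 52.0 Mb in WT libraries at 3 h (log2 difference −0.55, exact permutation p = 0.2), and the libraries overlapped. Without UV it was 25.8, 23.8 and 31.1 Mb in ASH1L-/- libraries and 21.1, 26.8 and 30.5 Mb in WT libraries (exact p = 0.9). By presence alone, 1084 of 44102 regions marked in 3 or more of the 6 libraries had a peak in 3 of 3 ASH1L-/- libraries and 0 of 3 WT libraries (2.46%), and 5136 had a peak in 0 of 3 ASH1L-/- libraries and 3 of 3 WT libraries (11.6%). Of the 5136 regions, 190 showed the same pattern without UV and 971 had no peak in any of the 6 unirradiated libraries. A peak in 2 or 3 unirradiated libraries was found at 1707 of them in WT cells and at 1525 in ASH1L-/- cells. Of the 1084 regions, 109 showed the same pattern without UV and 320 had no peak in those 6 libraries. A peak in 2 or 3 unirradiated libraries was found at 97 of these in WT cells and at 365 in ASH1L-/- cells. At promoters the corresponding shares were 0.51% for ASH1L-/- only and 2.0% for WT only, and in gene bodies 2.74% for ASH1L-/- only and 11.5% for WT only.

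The distal loss was steepest in GC-rich DNA. Among 5 classes of equal size, in the class with the highest GC content (53.6 to 82.8%) 29.4% fell and 0.575% rose in ASH1L-/- cells, whereas in the lowest class (21.8 to 40.2%) 2.44% fell and 4.11% rose. The highest class was covered over 6.56, 5.08 and 5.56 Mb in ASH1L-/- libraries at 3 h, against 13.4, 9.91 and 13.1 Mb in WT libraries, with no overlap. Without UV it was covered over 6.30, 6.08 and 7.40 Mb in ASH1L-/- libraries and 5.52, 4.98 and 7.55 Mb in WT libraries, which overlapped. The lowest class was covered over 7.23, 4.29 and 6.13 Mb in ASH1L-/- libraries and 6.81, 4.43 and 6.86 Mb in WT libraries at 3 h. The ratio of mean coverage, ASH1L-/- over WT, stepped down through the classes, low to high, as 0.975, 0.819, 0.716, 0.6 and 0.472 at 3 h, against 0.804, 0.923, 1.07, 1.24 and 1.10 without UV. Gene bodies had the same order of falls, with 1.29% of bodies lower in the class of lowest GC content and 27.5% in the highest. At promoters the falls had no such order, with 7.16% and 6.61% lower, but the rises went from 11.8% to 2.54%. The promoter ratio of mean coverage went from 1.01 in the lowest class to 0.968 in the highest at 3 h, and from 1.05 to 0.99 without UV. With differences between libraries along GC content removed, 7149 distal regions fell and 1234 rose, and 957 gene bodies fell and 593 rose, of which 5865 distal and 944 body calls were among those above. How far GC content itself plays a part was not tested.

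**Figure D5:**
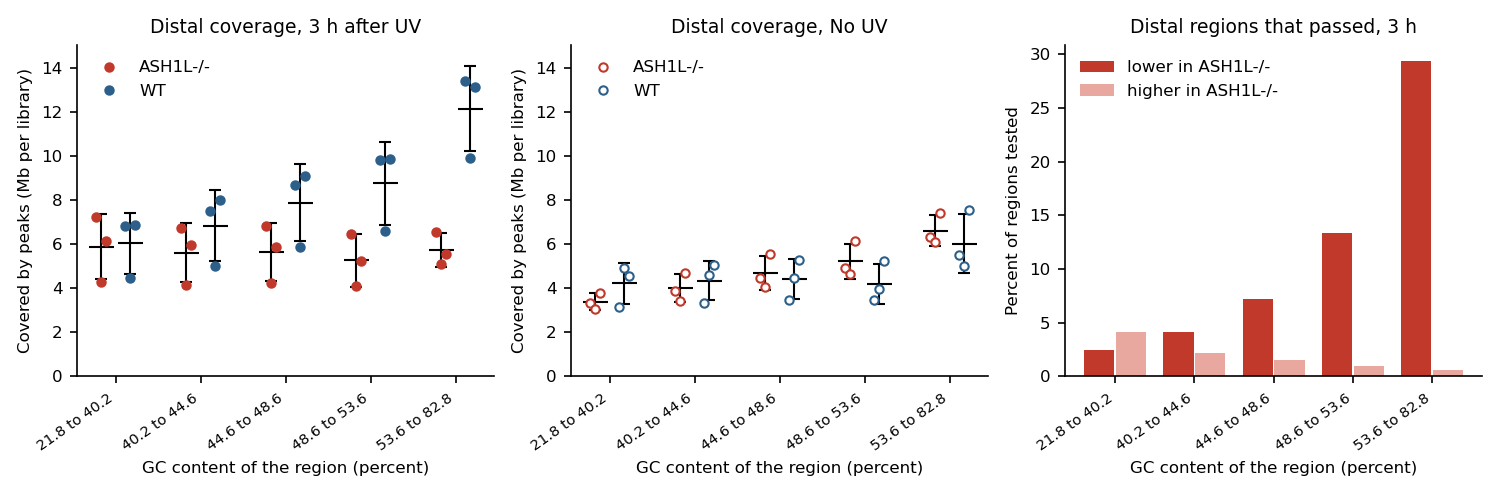
Distal coverage by GC content of the region (5 classes of equal size): Mb under peaks per library 3 h after UV (left) and without UV (middle), ASH1L-/- in red and WT in blue with mean and SD of 3, and percent of regions lower or higher in ASH1L-/- cells at 3 h (right). At 3 h the genotypes lie together in the class of lowest GC content and apart in the highest, 5.08 to 6.56 Mb in ASH1L-/- libraries and 9.91 to 13.4 Mb in WT libraries; without UV they overlap in the highest class.

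Loss was also concentrated toward chromosome ends. Within 5 Mb of an end 2156 of 7734 distal regions fell and 70 rose (27.9% and 0.905%), beside 9.24% and 1.98% elsewhere. Position and GC content overlap, since 3171 of the end regions lay in the class of highest GC content and 644 in the lowest. Within the highest class 43.3% fell near ends and 25.3% elsewhere, and within the lowest class 8.07% and 2.17%. These end regions were covered over 2.83, 1.94 and 2.41 Mb in ASH1L-/- libraries, against 6.65, 4.64 and 6.42 Mb in WT libraries at 3 h (ratio 0.406, exact permutation p = 0.1, no overlap). Without UV they were covered over 2.27, 2.22 and 2.94 Mb in ASH1L-/- libraries and 2.33, 2.38 and 3.42 Mb in WT libraries. The middle 500 bases of regions that fell had a median GC content of 53.8% and 1.4 CG dinucleotides per 100 bases, against 46.6% and 0.8 over all regions. Adjacent pyrimidines, where UV forms dimers, made up a median of 57.5% of dinucleotides in regions that fell, 56.3% in regions that rose and 56.9% over all regions.

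The largest single loss lay in SNHG14, a noncoding transcript of the imprinted Prader-Willi and Angelman locus that hosts snoRNA genes (chromosome 15, 25169174 to 25244325). It was covered over 28.8, 15.9 and 11.2 kb in ASH1L-/- libraries, against 74.4, 70.2 and 74.2 kb in WT libraries at 3 h (difference −54.3 ± 6.9 kb, SE; adjusted p = 6.18e-05). Without UV it was covered over 51.0, 48.9 and 63.5 kb in ASH1L-/- libraries and 41.9, 41.3 and 61.8 kb in WT libraries. All 3 irradiated ASH1L-/- libraries were thus below every other library of the 4 groups. A region on the short arm of chromosome 12 (34378375 to 34408105) had 2.81, 2.41 and 1.3 kb in ASH1L-/- libraries, against 28.1, 22.9 and 26.8 kb in WT libraries (difference −23.7 kb, adjusted p = 4.94e-08). A region 92.2 kb from the start of RET, a receptor of neural crest cells (chromosome 10, 42982867 to 42993676), had 0.715, 0 and 0 kb in ASH1L-/- libraries, against 10.5, 10.1 and 10.7 kb in WT libraries. Of the other 7 of the 10 largest losses, 5 lay on chromosome 8, 1 on chromosome 10 (130489465 to 130504302) and 1 on chromosome 18 near SALL3. In 10 of 10 the difference at 3 h was more negative than that without UV by the test. The 10 were picked by their difference at 3 h, which is part of that test, so the count was favoured by the choice. Over all distal regions 5.08% passed with a lower difference.

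Among the largest distal gains, a region in LINC00958 (chromosome 11, 12981507 to 12990223) had 8.32, 7.35 and 6.80 kb in ASH1L-/- libraries, against 3.09, 2.80 and 4.47 kb in WT libraries. A region 15.6 kb from SCIN, a gelsolin-type actin severing protein (chromosome 7, 12551818 to 12555790), had 3.74, 3.2 and 3.2 kb in ASH1L-/- libraries and none in WT libraries, in a bin of lower XPC coverage in ASH1L-/- cells (−1.99). Of the 10 largest gains 8 also passed without UV, and of the 10 largest losses 1 did.

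The calls at 3 h were set against the unirradiated pair of genotypes, which shares no library with the pair at 3 h. Whether gains and losses differ in the share already present without UV was not tested. Of 1032 promoters covered more at 3 h, 900 (87.2%) lay in the same direction without UV and 166 passed there too, and of 1085 covered less, 759 (70.0%) lay in the same direction and 56 passed. Over all promoters without UV, 422 passed as covered more and 163 as covered less. For promoter height the order was the other way, with 97 of 133 rises (72.9%) and 6481 of 7749 falls (83.6%) in the same direction. Over all 14605 heights the median log2 difference without UV was −0.34, with 1608 falls and 137 rises, so most heights lay lower there. The share in the same direction was not taken over all windows for any of these measures. Of 529 bodies covered more, 458 (86.6%) lay in the same direction. Of 1197 bodies covered less, 596 (49.8%) lay in the same direction without UV, 43 passed in that direction and 44 in the opposite one. Of 1311 distal regions covered more, 790 (60.3%) lay in the same direction. Of 7946 covered less, 3950 (49.7%) lay in the same direction without UV, with 61 passing in it and 75 against it. Over all windows without UV, 88 bodies and 79 distal regions passed as covered less, and 279 and 305 as covered more. The median difference without UV was 0 kb for distal regions covered less and close to that for bodies covered less. Windows without a difference were not set apart in these counts, so the remainder is not a count of opposite differences. The test of the difference between the 2 differences passed at 238 promoters (1.61%), 658 bodies (5.31%), 3758 distal regions (5.34%) and 1789 heights (12.2%). Of these 200 (1.36%), 594 (4.79%), 3579 (5.08%) and 1727 (11.8%) had a lower difference, and 38 (0.258%), 64 (0.516%), 179 (0.254%) and 62 (0.425%) a higher difference, at 3 h than without UV. Promoters had 116, 94, 102 and 145 such calls without ASH1L-/- replicate 1, ASH1L-/- replicate 2, WT replicate 1 and WT replicate 3. Bodies had 436, 372 and 436 without ASH1L-/- replicate 2, WT replicate 1 and WT replicate 3, and 1013 with the replicate number as a block. Distal regions had 6351 without WT replicate 2.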

How the data were processed

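Per the methods of the study, the authors trimmed reads with Trim Galore 0.6.5, aligned them to hg38 without chromosome Y with BWA 0.7.17-r1188, removed duplicates with Picard and called narrow peaks for each immunoprecipitated library against its corresponding pooled input with MACS2 2.2.7.1, while SAMtools 1.7 and bedtools 2.29.2 handled the alignments and intervals. The deposited lists give, for each peak, its start, end and summit, the fold enrichment of reads over the local control as the authors' caller wrote it, and the −log10 p and −log10 q of the peak. The authors deposited 1 list per replicate, and lists of replicates can share a pooled input control, whose error the spread among them does not show. Read totals were not used here, and relative depth was recovered from the deposited fold enrichment and −log10 p.

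Start sites came from GENCODE 44 (19970 protein-coding genes), and promoter windows ran 2 kb to each side. Gene bodies shorter than 4 kb were left out. Peaks of all 18 H3K4me3 libraries were merged into 282418 regions, 159247 of them distal. Windows covered in fewer than 3 of 18 libraries were not tested. The response was kb covered (promoters, distal regions), log2 of kb + 0.1 (gene bodies) or log2 of height (a value of 1 where no summit lay in the window). limma 3.58.1 in R 4.3.3 fitted 6 group means over the 18 libraries, including 1 h after UV, with trended, robust variances and Benjamini-Hochberg adjustment over all windows of a kind, and was tested on simulated data. Library totals were compared by two-sided exact permutation tests, which cannot go below p = 0.1. Other steps used Python 3.11.15, numpy 2.4.6, pandas 2.3.3, scipy 1.17.1, matplotlib 3.10.9 and samtools 1.23.1.

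The genes and regions named are the 10 largest falls and the 10 largest rises among those that passed and did not overlap, up to 4 passing members of each gene list, and ASH1L, MORF4L1, SUPT16H, SSRP1, XPC and DDB2 in any case. Of these, 1 gene and 2 regions are not reported here. AGRP and the genes named for a motif were chosen after their values were seen. Members, gene lists and tests were chosen with earlier results of these data known. Same-numbered ASH1L-/- and WT libraries deviated together in gene bodies (correlations 0.132, 0.133 and 0.148) and distal regions (0.250, 0.296 and 0.146), so a fit with the replicate number as a block was also made. Alternatives were other peak thresholds, windows, filters, scalings and sets of libraries, and the ones for depth, XPC bins and GC content were added after seeing the data.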

Additional observations from a re-analysis of the deposited data

Results flagged for a closer look

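The genotype difference at 3 h was set against the genotype difference without UV for each window (limma, a contrast of both differences, adjusted p under 0.05). It passed at 238 promoters, 658 gene bodies, 3758 distal regions and 1789 promoter heights. The windows listed below were picked by their difference at 3 h, which is part of this contrast, so their passing is no separate support.

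Among the largest promoter losses and gains named above, the difference in covered length was more negative at 3 h by −1.86 kb at KRTAP10-5 (adjusted p = 0.0245), −2.94 kb at C10orf71 (0.0352), −2.78 kb at HRCT1 (0.0147), −2.20 kb at KRTAP10-9 (0.0305) and −1.98 kb at KRTAP12-4 (0.0185). The bin of these KRTAP promoters had a lower share of XPC coverage in ASH1L-/- cells (−4.49 on the log2 scale). Members named by gene list, such as NR4A1 and LAMB3 given above, are not included here.

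Among the largest losses and gains in gene bodies the difference was more negative at 3 h on the log2 scale by −7.55 at ADCYAP1R1 (adjusted p = 0.00147), −7.73 at RAMP3 (0.00209), −5.76 at TSPAN15 (0.000469), −5.73 at ESPNL (0.0158), −9.36 at SYT6 (0.000249), −4.14 at CROCC2 (0.0118), −3.80 at BMF (0.0235) and −8.32 at DRD2 (0.00147), and more positive by 3.21 at ZDHHC5 (0.0181). At SYT6 and DRD2 the sign of the difference was opposite without UV.

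Among the named distal regions the difference was more negative at 3 h by −60.4 kb in SNHG14 (adjusted p = 0.00152), −22.2 kb on the short arm of chromosome 12 (7.88e-06), −9.44 kb near RET (0.0022), −5.99 kb nearest to GLRX3 (0.00416) and −9.66 kb near SALL3 (0.0124). The 5 regions on chromosome 8 gave −18.7, −14.1, −13.9, −12.2 and −8.73 kb (adjusted p = 0.000226, 0.000781, 0.00481, 0.000529 and 0.00674). Near SCIN the gain was larger at 3 h by 1.22 kb (0.0207).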

How the results depend on the processing

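After scaling every library to the same covered length, calls at 3 h were 895 for promoters (274 lower, 621 higher) and 2689 for gene bodies (1088 lower, 1601 higher), and 138 promoters differed from the difference without UV. With peaks enriched at least 5-fold, 2620 promoters (2155 lower, 465 higher) and 2319 distal regions were called at 3 h, and 382 promoters, 416 gene bodies and 991 distal regions differed from the difference without UV. Windows of 1 kb gave 1769 promoter calls (1517 lower, 252 higher). Fitting only the groups compared gave 4385 distal regions at 3 h and 129 promoters in the difference of differences. With GC content removed the difference of differences passed at 282 gene bodies and 2123 distal regions. Centred heights gave 3943 calls at 3 h and 2711 against no UV. The replicate block gave 1013 gene bodies in the difference of differences, 2193 gene bodies and 10156 distal regions at 3 h, and 615 gene bodies without UV against 367, and moved no other count of calls by over 1.5 times.

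Leaving out 1 library gave, at 3 h, 1082 to 1498 promoters, 1150 to 1603 gene bodies, 7058 to 12835 distal regions and 6026 to 7330 heights, and against no UV 94 to 313 promoters, 372 to 722 gene bodies and 2526 to 6351 distal regions. The log2 difference per library ranged from −0.0398 to 0.0029 for promoter length (0.0029 without WT replicate 3), −0.49 to −0.19 for gene body length, −0.74 to −0.37 for distal length, 0.11 to 0.17 for promoter peaks, −0.36 to −0.15 for gene body peaks, −0.44 to −0.17 for distal peaks and −0.58 to −0.46 for peaks enriched at least 5-fold. Promoter peaks turned to −0.27 (exact permutation p = 0.1) when only peaks enriched at least 5-fold were counted.

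Of 101 values of named genes and regions, 101 kept their direction and their side of the threshold with the replicate block and 100 with GC content removed, as did 80 of 87 after scaling and 58 of 82 with peaks enriched at least 5-fold. SUPT16H height turned to 0.050 after centring, GTF2H3 length to −0.013 kb in windows of 1 kb, and XPC length to −0.15 kb both in windows of 1 kb and with peaks enriched at least 5-fold. The cause was not tested for any of these changes. A peak list has no values where no peak was called, so a bare window here means that no peak passed the threshold at that depth, not that the mark is absent.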
